A study of Homo sapiens with 6 samples.

Results

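The genes described here are 32 listed members of glycolysis and of the response to low oxygen: 18 enzymes of the pathway from glucose to lactate, 5 kinases that set its flux, the oxygen-regulated factor HIF1A with 2 of its hydroxylases, and 6 further genes that the factor is known to switch on. They were taken by symbol from the list, and all 32 of 32 passed the filter on low counts, among 34905 genes with summed counts of which 14497 were tested. The material was poly(A) RNA of THP1, an established human acute leukaemia line of monocytic type, sequenced as 6 libraries. The labels give 3 groups with n = 2 each. These are ALKBH5 rescue (knock-down with ALKBH5 restored), shALKBH5 (hairpin knock-down of ALKBH5) and shCtrl (hairpin control, genotype label wild-type), each with a replicate 1 and a replicate 2. ALKBH5 removes the m6A mark from RNA, and the design asks which transcripts depend on it. The labels do not describe the rescue construct, the hairpin or the number of clones, and they name no low-oxygen treatment for any group. They also leave unsaid whether the replicates are separate cultures. The p-values below therefore speak to the spread among these 6 libraries alone, and that spread may be technical.

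Glycolysis splits glucose into pyruvate, and lactate dehydrogenase turns pyruvate into lactate when it is not burned in mitochondria. In leukaemic and other fast-growing cells much of the glucose takes this route even where oxygen is present. The factor HIF pairs the subunit HIF1A with ARNT, is marked for destruction by the EGLN prolyl hydroxylases while oxygen is available, and, once stable, binds the short element ACGTG or GCGTG near many glycolytic genes. Hydroxylation acts on the protein, so RNA levels of HIF1A do not report the amount of active factor.

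The check of the targeted gene went against the labels. ALKBH5 stood at 968 CPM in the replicate 2 library labelled ALKBH5 rescue, 1003 CPM in that labelled shALKBH5 and 1097 CPM in that labelled shCtrl. In the replicate 1 libraries it stood at 13.6 CPM in ALKBH5 rescue, 12.4 CPM in shALKBH5 and 14.6 CPM in shCtrl. CPM is the count scaled to a common library size. Its level thus followed the replicate number, with a log2 fold change of 6.24 (SE 0.11) for replicate 2 over replicate 1, and not the labelled knock-down, so groups below are named as labelled and no library was reassigned. Whether titles or files were exchanged cannot be told from these data, and if they were, both the labelled groups and the replicate numbers would mean something else than their names say. Estimated counts totalled 14534386 to 24857373 per library. Of 14497 genes, 45.4% passed the threshold between the replicate numbers, and what the numbers stand for is not given in the labels. All 12 monocytic markers of the list used to check the cell type were measured, with summed CPM between 3055 and 3472 in the replicate 2 libraries and between 2916 and 3137 in the replicate 1 libraries, while MPO, a granule peroxidase also listed there, averaged 1.66 CPM in the replicate 2 and 2.71 CPM in the replicate 1 libraries. Of these 12 markers, 4 were called higher and 5 lower in the replicate 2 libraries. Markers of T and NK cells summed to 18.4 to 22.7 CPM in the replicate 2 and 22.1 to 24.8 CPM in the replicate 1 libraries, and those of B cells to 11.3 to 13.5 CPM in the replicate 2 and 6.95 to 8.68 CPM in the replicate 1 libraries. Those of epithelial cells and fibroblasts summed to 2.40 to 2.78 CPM in the replicate 2 and 2.75 to 3.71 CPM in the replicate 1 libraries (2 of 8 at 0 in every library), and those of erythroid cells and megakaryocytes to under 1 CPM in every library (4 of 8 at 0). The part of these marker differences in the results below was not tested.

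Per unit of length, the enzymes from aldolase onward carried most of the RNA of these genes. TPM, the deposited value scaled by transcript length, averaged 2514 ± 101 for GAPDH, the dehydrogenase that makes the first NADH, 2267 ± 343 for ENO1, the main enolase, and 2214 ± 104 for ALDOA, the main aldolase (SD, n = 6 libraries). PKM, the pyruvate kinase that closes the pathway, averaged 1332 ± 67.4 TPM and LDHA, the lactate-forming dehydrogenase subunit, 1312 ± 73.7 TPM. These levels fall into an upper set of GAPDH, ENO1 and ALDOA and a next set of PKM and LDHA, and GAPDH stood above ALDOA in each library. PKM had 1361, 1371 and 1428 TPM in the replicate 2 libraries labelled ALKBH5 rescue, shALKBH5 and shCtrl, above the 1274, 1250.1 and 1231 TPM of LDHA there, and 1244, 1315 and 1276 TPM in the replicate 1 libraries, below the 1322, 1411 and 1386 TPM of LDHA there. The place of ENO1 also depended on the replicate number: it had 1908, 1930 and 2033 TPM in the replicate 2 libraries labelled ALKBH5 rescue, shALKBH5 and shCtrl, below the 2261, 2297 and 2346 TPM of ALDOA there, and 2584, 2562 and 2586 TPM in the replicate 1 libraries, above the 2129, 2173 and 2076 TPM of ALDOA there. PGK1, the kinase of the first ATP-making step, LDHB, the heart-type lactate dehydrogenase subunit, and PGAM1, the mutase before enolase, followed at 750.2 ± 46.6, 721 ± 61.1 and 646 ± 39.8 TPM. At the low end stood PFKM, the muscle phosphofructokinase subunit, at 2.70 ± 0.697 TPM, PFKFB2, a kinase that makes the activator of phosphofructokinase, at 1.56 ± 0.59 TPM, and the hydroxylase EGLN3 at 0.435 ± 0.113 TPM. EGLN3 rested on 7 to 20 counts and PFKM on 18 to 28 counts per library. Summed over the 32 members the TPM stayed within 13329.8 to 13771 in all 6 libraries, whereas summed CPM ran from 14059 to 15753 in the replicate 2 libraries and from 16063 to 17330.4 in the replicate 1 libraries.

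Some of these counts are uncertain in their source. No source states whether strand was used in counting, so reads of PFKM and SENP1, PFKFB2 and YOD1, and ANKRD37 and UFSP2, which lie on opposite strands, may not be told apart. The same holds for BNIP3L and PNMA2, which lie on opposite strands, where PNMA2 had 5.70% to 16.3% of the BNIP3L counts. EGLN3 overlaps the far more abundant SPTSSA on the same strand, and AC005726.1, which overlaps ALDOC on the same strand, had 41.2% to 55.5% of the ALDOC counts. Annotated pseudogene copies of the abundant enzymes took few reads, and the 62 of GAPDH held 0.0354% to 0.067% of its counts. Those of BNIP3, which is not an enzyme, held a larger share, at 2.61% to 4.68% of its counts.

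Promoter sequences of the members were searched for the short element that the factor binds. RefSeq windows (GRCh38.p14, from 250 bases before to 50 after an annotated start) were matched for 29 of the 32 members by symbol, with 52 windows in all. Among matched members 18 of 29 (62.1%) had ACGTG on either strand in at least 1 window, against 24.9% of 27305 genes in the table. Counted by window, the shares were 42.3% of 52 member windows and 21.4% of 35116 windows in all. With GCGTG allowed as well, 26 of 29 members (89.7%) had a match, against 52.4% of all genes. By window these shares were 65.4% of member windows and 48.4% of all windows. CACGTG, which holds ACGTG on both strands and is also the E-box that MYC family proteins bind, was found in 8 of 29 members (27.6%) and in 8.78% of all genes. These matches describe the letters in the window and do not show binding. Members were listed in part as known HIF targets, so a high share of the element is no separate support for that link. The genes compared with were not limited to those tested here. The 250 bases before the start are printed for 6 members that moved in different directions between the replicate numbers: ENO1 (chr1:8878687-8878936, minus strand), PGK1 (chrX:78103998-78104247, plus strand), ADM (chr11:10304823-10305072, plus strand), BNIP3 (chr10:131981924-131982173, minus strand), ALDOC (chr17:28576896-28577145, minus strand) and HK3 (chr5:176899347-176899596, minus strand). Each runs 5′ to 3′ in the direction of the gene, and capitals mark ACGTG or GCGTG on either strand, with overlapping matches joined.
ENO1: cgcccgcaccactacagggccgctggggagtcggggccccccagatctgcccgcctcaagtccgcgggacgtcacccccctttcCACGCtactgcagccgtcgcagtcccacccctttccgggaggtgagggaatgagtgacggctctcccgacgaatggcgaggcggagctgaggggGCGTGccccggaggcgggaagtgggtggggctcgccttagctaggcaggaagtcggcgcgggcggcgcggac
PGK1: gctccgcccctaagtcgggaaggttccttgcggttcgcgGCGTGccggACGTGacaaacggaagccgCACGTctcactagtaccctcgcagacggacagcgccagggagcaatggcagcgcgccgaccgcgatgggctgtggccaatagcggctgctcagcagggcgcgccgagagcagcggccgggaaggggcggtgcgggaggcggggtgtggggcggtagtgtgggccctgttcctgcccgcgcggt
ADM: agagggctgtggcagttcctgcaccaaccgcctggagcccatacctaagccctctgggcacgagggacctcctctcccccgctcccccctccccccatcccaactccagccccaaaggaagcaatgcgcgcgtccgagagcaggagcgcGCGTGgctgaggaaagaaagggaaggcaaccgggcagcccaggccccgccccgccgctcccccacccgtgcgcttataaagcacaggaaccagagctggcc
BNIP3: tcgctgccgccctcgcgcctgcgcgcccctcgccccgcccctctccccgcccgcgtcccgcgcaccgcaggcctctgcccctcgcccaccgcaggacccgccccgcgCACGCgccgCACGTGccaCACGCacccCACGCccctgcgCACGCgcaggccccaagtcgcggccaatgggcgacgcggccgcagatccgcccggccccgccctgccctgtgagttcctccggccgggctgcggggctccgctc
ALDOC: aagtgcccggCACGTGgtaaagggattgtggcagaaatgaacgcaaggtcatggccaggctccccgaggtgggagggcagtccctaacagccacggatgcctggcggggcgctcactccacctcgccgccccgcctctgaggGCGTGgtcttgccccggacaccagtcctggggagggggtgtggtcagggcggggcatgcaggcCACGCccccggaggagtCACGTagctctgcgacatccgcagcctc
HK3: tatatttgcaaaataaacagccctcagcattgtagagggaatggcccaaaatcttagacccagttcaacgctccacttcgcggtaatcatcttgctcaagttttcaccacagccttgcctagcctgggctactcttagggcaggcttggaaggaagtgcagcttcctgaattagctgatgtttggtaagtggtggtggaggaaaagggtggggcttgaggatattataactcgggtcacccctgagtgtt

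PGK1 and BNIP3 each show a run of matches, and ALDOC has 3 ACGTG and 2 GCGTG matches spread along its stretch. ENO1 and ADM have GCGTG matches only, and the HK3 stretch has no capital at all. ACGTG was in the windows of 6 of the 9 matched members higher in the replicate 2 libraries, 2 of the 5 lower and 10 of the 15 not called.

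No member passed the threshold in any of the 3 comparisons of the labelled groups. These groups were labelled for loss and return of ALKBH5, but ALKBH5 itself did not follow the labels, so the comparisons are between libraries as titled and do not bear on a response to ALKBH5. Under edgeR's quasi-likelihood test with Benjamini-Hochberg adjustment over 14497 genes at 0.05, 0 of 32 members were called between ALKBH5 rescue and shALKBH5, between ALKBH5 rescue and shCtrl, or between shALKBH5 and shCtrl, and 0% of all genes were. At an unadjusted p under 0.05 there were also 0 members, with 0.297%, 0.317% and 0.262% of all genes in the 3 comparisons in that order. DESeq2 and limma-voom, also fitted without a block, called 0 members too. A fit without a block takes the difference between the replicate numbers as spread. On simulated data the edgeR fit without a block did not recover the changes put in. These counts of 0 therefore say nothing about the members. With replicate number as a block, edgeR again called 0 members, and 1 gene of all (0.0069%) for shALKBH5 against shCtrl and for ALKBH5 rescue against shCtrl, and 0 for ALKBH5 rescue against shALKBH5. The comparisons share libraries, so their values are given side by side and not correlated. The median log2 fold change of the members was 0.02 for ALKBH5 rescue over shALKBH5 (all genes 0.01), -0.03 for ALKBH5 rescue over shCtrl (all genes -0.01) and -0.05 for shALKBH5 over shCtrl (all genes -0.03).

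The blocked fit gave narrower intervals for the libraries as titled. In each of the 3 comparisons the 95% interval of 31 of the 32 members lay within a 2-fold change in either direction, and the exception in all was EGLN3. For shALKBH5 over shCtrl the EGLN3 interval ran from -0.51 to 1.62 on the log2 scale. LDHB was the member with the smallest blocked p, at 743 and 645 CPM in the libraries labelled ALKBH5 rescue (replicates 1 and 2), against 565 and 589 CPM in shALKBH5, while shCtrl had 670 and 612 CPM. Both ALKBH5 rescue libraries lay above both shALKBH5 libraries, and the shALKBH5 libraries lay below shCtrl. The blocked log2 fold change of LDHB for ALKBH5 rescue over shALKBH5 was 0.26 (SE 0.11), with an unadjusted p of 0.0365 where 2% of all genes passed that level, and an adjusted p of 1.00 in edgeR. No member reached an unadjusted p under 0.05 in the blocked fit for ALKBH5 rescue against shCtrl or for shALKBH5 against shCtrl (0 members each), where 1.65% and 2.39% of all genes did.

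Few members had labelled groups that did not overlap. For ALKBH5 rescue against shALKBH5 these were LDHB and PFKFB4, a kinase and phosphatase of the same family as PFKFB2, on the higher side (2 members, where 5.39% of all genes did so), and HK2, the inducible hexokinase, and PFKFB2 on the lower side (2 members, 6.53% of all genes). Against shCtrl, ALKBH5 rescue had PFKFB2 lower (1 member, 6.15% of all genes) and no member higher (0 members, 3.98%). For shALKBH5 against shCtrl, PDK1, a kinase that shuts off pyruvate dehydrogenase, was on the higher side (1 member, 9.3% of all genes) and ALDOA and LDHB on the lower (2 members, 8.17%). PDK1 had 27.4 and 29.8 CPM in shALKBH5, against 23.5 and 26.1 CPM in shCtrl. Its difference was 0.22 within replicate 1 and 0.19 within replicate 2 on the log2 scale, and its blocked adjusted p was 0.978. Members with the same sign within both replicate numbers were 11 of 32 for ALKBH5 rescue against shALKBH5 (44.6% of all genes), 14 of 32 for ALKBH5 rescue against shCtrl (34.7%) and 19 of 32 for shALKBH5 against shCtrl (56.1%).

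**Figure D1:**
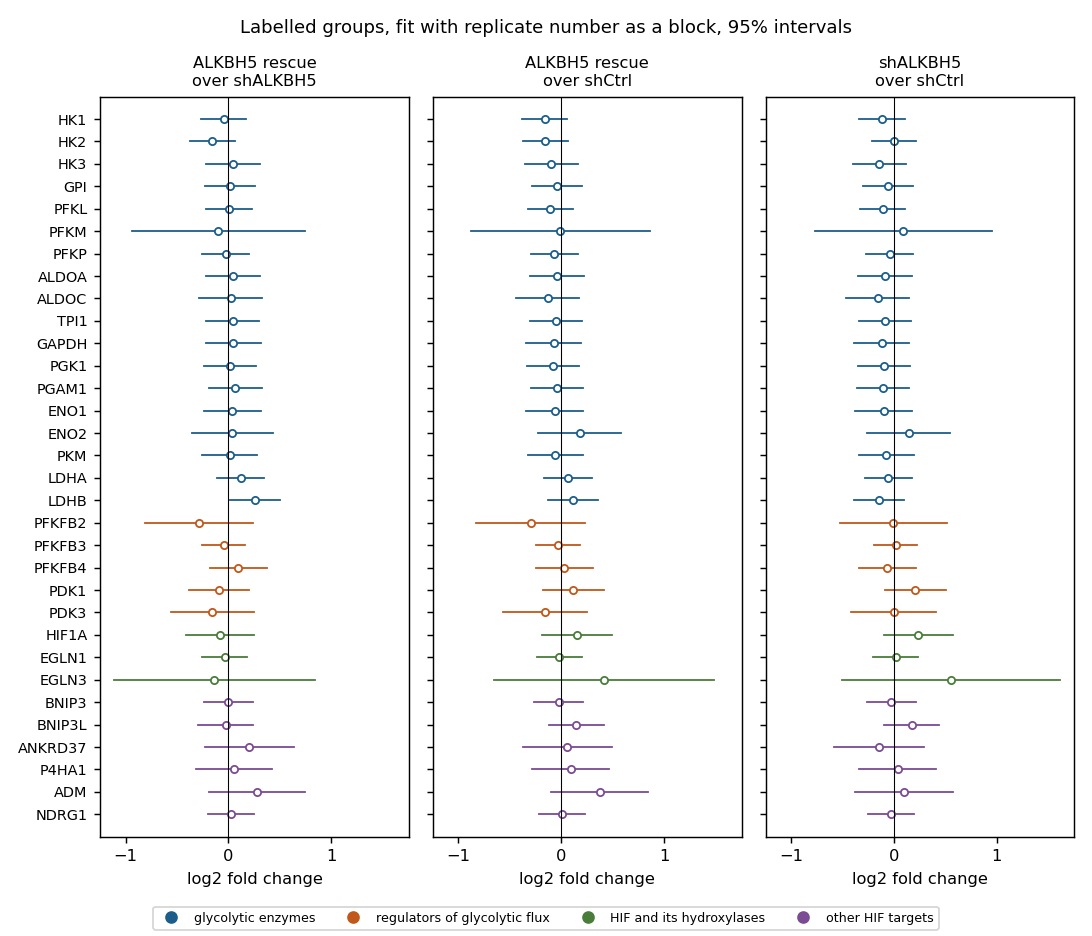
Log2 fold changes of the 32 members between the labelled groups in the fit with replicate number as a block, with 95% intervals as lines and genes coloured by role. Open circles show that 0 members passed the threshold, and all intervals but those of EGLN3 lie within a 2-fold change.

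Between the replicate numbers, members were called in both directions. Of the 32, 11 were higher and 5 lower in the replicate 2 libraries at an adjusted p under 0.05, a total of 16 (50% of members), where 45.4% of all genes were called (22.8% higher and 22.6% lower). The share of members called was thus near that of all genes. Without the library labelled shALKBH5 replicate 1 or replicate 2, 9 members were called, with 3915 and 4030 genes in all. A change of at least 2-fold was called for HK3, BNIP3L and ADM, which is 3 of 32 where 7.85% of all genes did so. The libraries of the replicate numbers did not overlap for 14 members on the higher side (28.6% of all genes) and 9 on the lower side (29.1% of all genes). The median log2 fold change of the members was 0.18 and that of all genes 0.01. In bulk RNA, fewer cells of a type and less RNA per cell cannot be told apart.

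**Figure D2:**
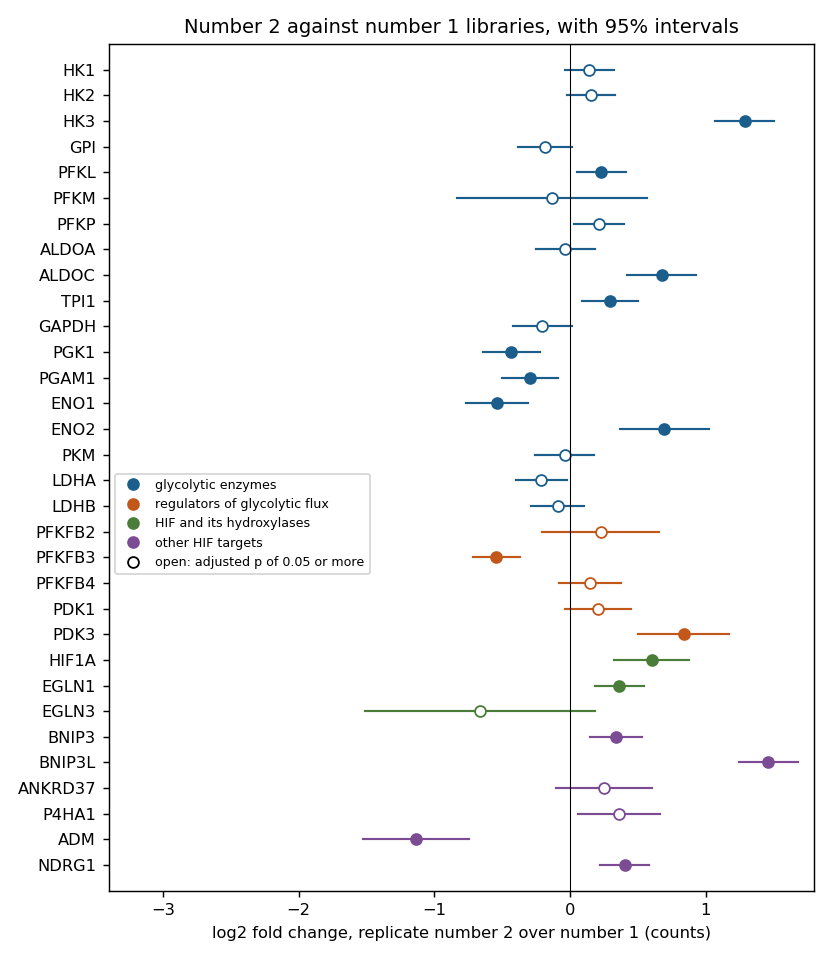
Log2 fold changes of the 32 members for replicate 2 over replicate 1 libraries from estimated counts, with 95% intervals as lines, grouped by role. Filled circles are the 16 members past an adjusted p of 0.05, with BNIP3L at 1.46 farthest right and ADM at -1.14 farthest left.

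Of the 18 enzymes, 5 rose, 3 fell (PGK1 among them on counts but not on TPM) and 10 did not pass. Over all genes, 22.8% were called higher and 22.6% lower. The hexokinases, which trap glucose in the cell, split by isoform. HK3, the myeloid hexokinase (chromosome 5, 176880869 to 176899332, GRCh38), had 80.2, 75.3 and 90.9 CPM in the replicate 2 libraries labelled ALKBH5 rescue, shALKBH5 and shCtrl, against 33.6, 33.6 and 33.5 CPM in the replicate 1 libraries. Every replicate 2 library stood above all replicate 1 libraries, and the 3 replicate 1 values were nearly equal. The log2 fold change was 1.29 (SE 0.10, edgeR adjusted p = 1.8e-05), a 2.44-fold difference. HK1, the widespread form, and HK2 had log2 fold changes of 0.14 (SE 0.08) and 0.15 (SE 0.08) and were not called. HK3 made up 27.7%, 22.5% and 25.9% of the summed hexokinase TPM in the replicate 2 libraries, against 15.9%, 12.9% and 15.7% in the replicate 1 libraries.

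In the upper pathway, GPI, the isomerase after hexokinase, was not called (-0.18, SE 0.09). Phosphofructokinase, the main point of control, was made of PFKP, the platelet subunit, and PFKL, the liver subunit, in nearly fixed proportion: PFKL held 37.4% to 39.2% of the family's TPM in all 6 libraries. PFKL had a log2 fold change of 0.23 (SE 0.08, adjusted p = 0.0417 in edgeR). That call was lost in DESeq2 (adjusted p = 0.0579), with RLE size factors (edgeR adjusted p = 0.0515) and in 4 of 6 fits with a library left out. Fits without replicate 1 or replicate 2 of the same group nearly repeat each other, so these 4 are not separate losses. PFKP, at 0.21 (SE 0.08, adjusted p = 0.0585 in edgeR), lay just past the threshold on the other side. Among aldolases, ALDOC, the brain-type form, had 28.5, 26.2 and 31.9 CPM in the replicate 2 libraries, against 17.4, 18.3 and 18.5 CPM in the replicate 1 libraries. Those sets did not overlap, and the log2 fold change was 0.67 (SE 0.11, edgeR adjusted p = 0.0012), while ALDOA was at -0.04 (SE 0.10). ALDOC still made up 1.48% ± 0.114 of aldolase TPM in the replicate 2 libraries and 0.869% ± 0.0868 in the replicate 1 libraries (SD, n = 3 each). TPI1, which interconverts the triose phosphates, rose by 0.29 (SE 0.09, edgeR adjusted p = 0.0268).

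In the lower pathway ENO1 and PGAM1 fell, as did PGK1 on counts but not on TPM. ENO1 (chromosome 1, 8861000 to 8879250) had 2243, 2324 and 2621 CPM in the replicate 2 libraries labelled ALKBH5 rescue, shALKBH5 and shCtrl, against 3658, 3356 and 3412 CPM in the replicate 1 libraries. All 3 replicate 2 libraries lay below, the nearest being shCtrl. ENO1 fell by 0.54 on the log2 scale (SE 0.10, edgeR adjusted p = 0.0023). PGAM1 had 726, 749.6 and 834 CPM in the replicate 2 libraries, against 1010.5, 894 and 929.9 CPM in the replicate 1 libraries, again without overlap, and fell by 0.30 (SE 0.09, edgeR adjusted p = 0.0264). ENO2, the neuronal enolase, ran the other way, with 11.6, 12.2 and 12.1 CPM in the replicate 2 libraries, against 8.47, 7.65 and 6.07 CPM in the replicate 1 libraries. Its log2 fold change was 0.69 (SE 0.15, edgeR adjusted p = 0.0043), yet it held 0.466% of enolase TPM in the replicate 2 libraries and 0.245% in the replicate 1 libraries. LRRC23, which overlaps ENO2, had counts equal to 10.7% to 23.7% of those of ENO2.

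PGK1 depended on the scale. It had 1069, 1123 and 1246 CPM in the replicate 2 libraries, against 1602, 1493 and 1540.0 CPM in the replicate 1 libraries, a fall of 0.43 on the log2 count scale (SE 0.09, edgeR adjusted p = 0.0046), but 755, 779 and 822 TPM in the replicate 2 libraries, against 713, 694 and 737 TPM in the replicate 1 libraries. Both sets are without overlap and point in opposite directions. The estimated share of PGK1 counts given to its short transcript PGK1-205, of 702 bases, was 14.1%, 14.0% and 14.2% in the replicate 2 libraries, against 8.84%, 8.81% and 9.45% in the replicate 1 libraries. The full-length transcript PGK1-201, of 4887 bases, held 80.6% to 82.1% in the replicate 2 libraries and 89.5% to 90.6% in the replicate 1 libraries. TPM divides each count by transcript length, so a larger share of a short transcript raises it. For the other 15 of the 16 called members, TPM and counts had the same direction.

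**Figure D3:**
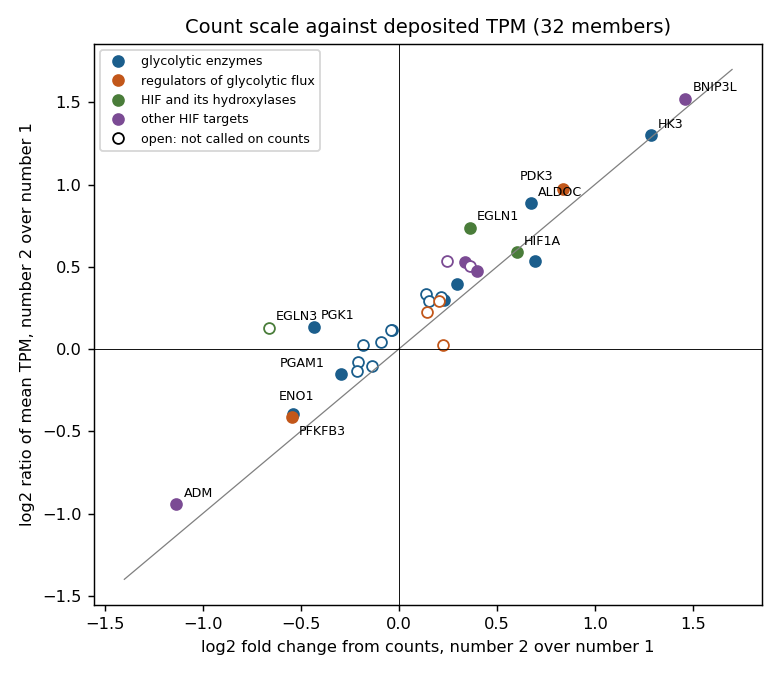
Each point is 1 of the 32 members, with the log2 fold change from counts on the x axis and the log2 ratio of mean TPM on the y axis, both replicate 2 over replicate 1, and the grey line marks equal values. PGK1 is the one filled point in the upper left, at -0.43 on counts and 0.14 on TPM.

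The dehydrogenases and pyruvate kinase did not pass the threshold in edgeR. GAPDH (-0.21, SE 0.10), PKM (-0.04, SE 0.10), LDHA (-0.21, SE 0.08) and LDHB (-0.09, SE 0.09) were not called. LDHA was called lower by DESeq2 (adjusted p = 0.0438), by limma-voom (adjusted p = 0.0442) and by edgeR without group terms (adjusted p = 0.0227), where GAPDH was called too (edgeR adjusted p = 0.0483). PKM can be spliced to the M1 or the M2 form through a pair of mutually exclusive exons. Transcripts with the M2 exon (chromosome 15, 72202454 to 72202620) held 89.3% to 92.8% of PKM counts in the 6 libraries and those with the M1 exon (72203022 to 72203188) 1.23% to 2.39%. The M2 form, which is the usual one in dividing cells, was therefore dominant in every library. LDHB made up 36.9% ± 1.5 of lactate dehydrogenase TPM in the replicate 2 libraries and 34.1% ± 2.99 in the replicate 1 libraries (SD, n = 3 each), and these sets overlap.

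**Figure D4:**
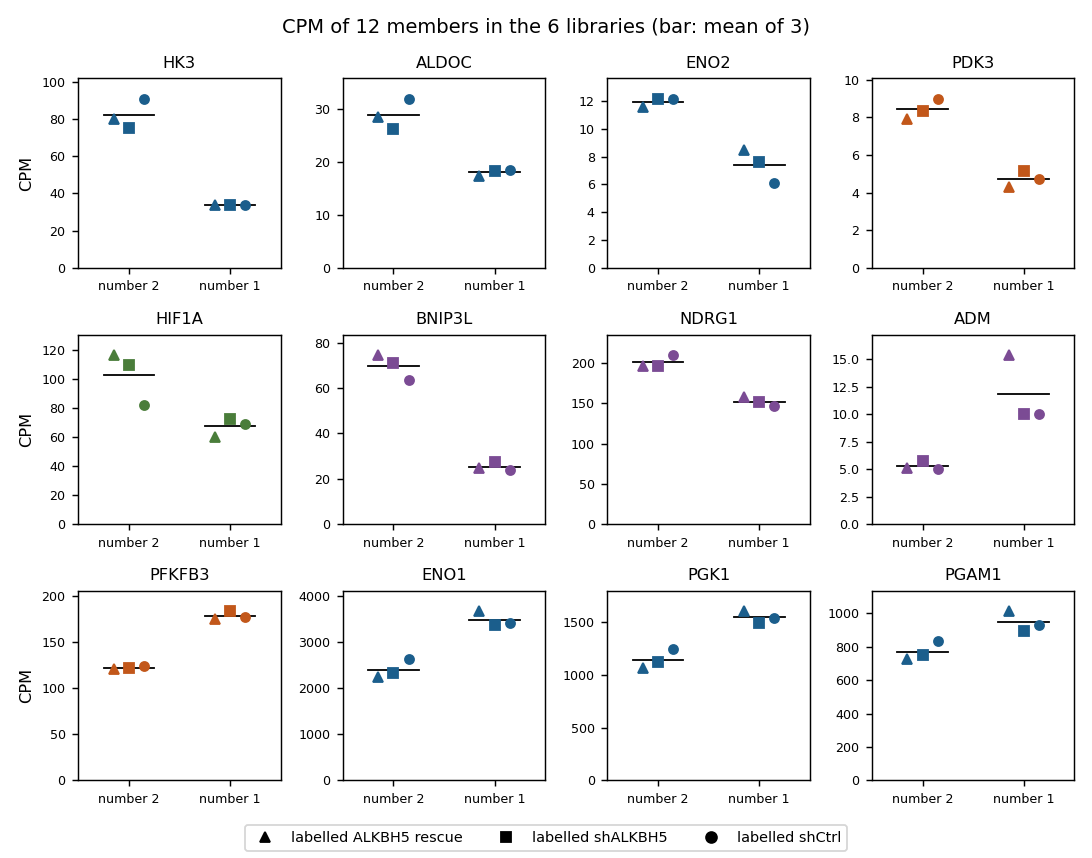
CPM of 12 members in the 6 libraries, replicate 2 on the left and replicate 1 on the right of each panel, with symbols for the labelled group and a bar for the mean of 3. By the mean of 3, HK3 and BNIP3L are at least 2-fold higher and ADM at least 2-fold lower in the replicate 2 libraries. In the HIF1A panel, the labelled shCtrl library is the replicate 2 library that sits closest to replicate 1.

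Among the 5 regulators of flux, 1 rose, 1 fell and 3 did not pass (22.8% of all genes called higher, 22.6% lower). PFKFB3, the inducible kinase that makes the activator of phosphofructokinase (chromosome 10, 6144934 to 6254644), had 121, 123 and 124 CPM in the replicate 2 libraries, against 175, 184 and 177 CPM in the replicate 1 libraries. The spread within each set was far smaller than the gap between them. PFKFB3 fell by 0.55 (SE 0.08, edgeR adjusted p = 0.0005), whereas PFKFB4 (0.15, SE 0.10) and PFKFB2 (0.22, SE 0.19) were not called. PFKFB4 made up 29.1% ± 1.10 of the family's TPM in the replicate 2 libraries and 21.0% ± 1.44 in the replicate 1 libraries (SD, n = 3 each).

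PDK1 and PDK3 both phosphorylate and switch off pyruvate dehydrogenase. PDK3 had 7.93, 8.35 and 8.99 CPM in the replicate 2 libraries, against 4.30, 5.14 and 4.70 CPM in the replicate 1 libraries. With no overlap, its log2 fold change was 0.84 (SE 0.15, edgeR adjusted p = 0.0017). PDK1 was at 0.20 (SE 0.11) and was not called. The share of PDK3 in their summed TPM was 35.1%, 33.9% and 39.2% in the replicate 2 libraries, against 22.7%, 26.9% and 28.3% in the replicate 1 libraries.

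**Figure D5:**
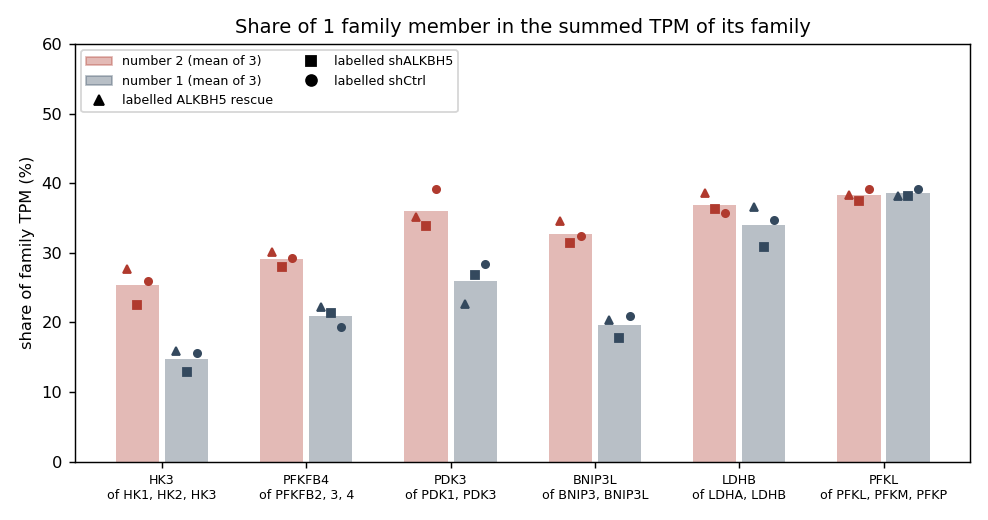
Share of 1 member in the summed TPM of its family, with bars for the mean of 3 libraries and symbols for each, replicate 2 left of replicate 1. HK3, PFKFB4, PDK3 and BNIP3L take a larger share in every replicate 2 library, and PFKL stays between 37.4% and 39.2% in all 6.

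Of HIF1A and its hydroxylases, 2 of 3 rose (22.8% of all genes called higher). HIF1A, the oxygen-regulated subunit (chromosome 14, 61695513 to 61748259), had 116, 109 and 82.2 CPM in the replicate 2 libraries labelled ALKBH5 rescue, shALKBH5 and shCtrl, against 60.03, 72.5 and 69.2 CPM in the replicate 1 libraries. The sets did not overlap, but the shCtrl library of replicate 2 lay closest to the replicate 1 libraries. The log2 fold change over all was 0.60 (SE 0.12, edgeR adjusted p = 0.0035). It was 0.95 between the libraries labelled ALKBH5 rescue, 0.59 between those labelled shALKBH5 and 0.25 between those labelled shCtrl. With 1 library of each number in a group, the difference between these 3 values could not be tested. Read the other way, the log2 difference of ALKBH5 rescue over shCtrl was 0.50 within replicate 2 and -0.20 within replicate 1, so the labelled difference changed sign with the number.

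EGLN1, the main hydroxylase that marks HIF1A, had 115, 113 and 113 CPM in the replicate 2 libraries, against 85.1, 91.2 and 89.5 CPM in the replicate 1 libraries, and rose by 0.36 (SE 0.08, edgeR adjusted p = 0.0054). EGLN3, itself induced by HIF, had under 1 CPM in every library and was not called (-0.66, SE 0.38, with a TPM ratio in the opposite direction).

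Among the 6 further targets, 3 rose, 1 fell and 2 did not pass (22.8% of all genes called higher, 22.6% lower). BNIP3L, a receptor that tags mitochondria for removal (chromosome 8, 26382898 to 26505636), had 74.5, 71.0 and 63.4 CPM in the replicate 2 libraries, against 24.8, 27.2 and 23.9 CPM in the replicate 1 libraries. No replicate 2 library came near a replicate 1 library, and the 2.75-fold difference was the widest of the 32 members (log2 1.46, SE 0.10, edgeR adjusted p = 1.2e-05). Its paralogue BNIP3, with the same role, rose less, with 109, 114 and 122 CPM in the replicate 2 libraries, against 94.8, 90.8 and 87.4 CPM in the replicate 1 libraries (0.34, SE 0.09, edgeR adjusted p = 0.0106). BNIP3L made up 32.8% ± 1.63 of the pair's TPM in the replicate 2 libraries and 19.7% ± 1.72 in the replicate 1 libraries (SD, n = 3 each).

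NDRG1, which encodes a stress-induced cytoplasmic protein (chromosome 8, 133237171 to 133302022), had 196, 196 and 210.0 CPM in the replicate 2 libraries, against 158, 152 and 146 CPM in the replicate 1 libraries, and rose by 0.40 (SE 0.08, edgeR adjusted p = 0.0034). ADM, which encodes the secreted peptide adrenomedullin (chromosome 11, 10304680 to 10307397), moved the other way, with 5.11, 5.77 and 5.002 CPM in the replicate 2 libraries, against 15.4, 10.1 and 10.1 CPM in the replicate 1 libraries. Both sets are apart, and the ALKBH5 rescue library of replicate 1 is the highest. ADM fell by 1.14 on the log2 scale (SE 0.17, edgeR adjusted p = 0.0008). The log2 difference was -1.57 between the libraries labelled ALKBH5 rescue, -0.79 between those labelled shALKBH5 and -0.99 between those labelled shCtrl. P4HA1, a collagen prolyl hydroxylase subunit, had 55.1, 49.9 and 40.2 CPM in the replicate 2 libraries, against 34.9, 35.9 and 41.9 CPM in the replicate 1 libraries, overlapping through the shCtrl libraries (0.36, SE 0.14, edgeR adjusted p = 0.0532). ANKRD37 was at 0.25 (SE 0.16) and was not called.

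Members called between the replicate numbers therefore did not all move one way. BNIP3, BNIP3L, NDRG1, ALDOC, EGLN1, TPI1, ENO2, PFKL, PDK3, HK3 and HIF1A were higher in the replicate 2 libraries. ADM, PFKFB3, ENO1, PGAM1 and, on counts but not on TPM, PGK1 were lower.

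Neighbouring pathways gave their own values for the same comparison of replicate 2 with replicate 1. Of 10 tested genes for glucose and lactate transport, 3 rose and 4 fell, where 22.8% of all genes were called higher and 22.6% lower. SLC2A3, a high-affinity glucose transporter, averaged 12.8 ± 0.669 CPM in the replicate 2 libraries and 51.3 ± 2.18 CPM in the replicate 1 libraries (log2 -2.0, SE 0.11). SLC2A1, the widespread one, averaged 579 ± 29.4 CPM in the replicate 2 libraries and 759 ± 8.95 CPM in the replicate 1 libraries (-0.39, SE 0.08). SLC2A5, a fructose transporter, fell by 0.81 (SE 0.09) and BSG, the chaperone of lactate transporters, by 0.47 (SE 0.09), while SLC2A9, a urate transporter (0.89, SE 0.10), SLC2A6 (0.50, SE 0.09) and SLC16A3, the lactate exporter (0.37, SE 0.09), rose. Of 9 other tested glycolysis genes, PGM1, which feeds in glycogen glucose, rose (0.77, SE 0.11) and TIGAR, a phosphatase that slows glycolysis, fell by 0.84 (SE 0.24).

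Of 16 genes of the HIF pathway, 4 rose and 3 fell, where 22.8% of all genes were called higher and 22.6% lower. SIAH1, a ubiquitin ligase that acts on EGLN proteins (0.87, SE 0.12), VHL, which recognises hydroxylated HIF (0.55, SE 0.09), the hydroxylase EGLN2 (0.35, SE 0.08) and the coactivator CREBBP (0.32, SE 0.09) were higher in the replicate 2 libraries. EPAS1, the second oxygen-regulated subunit, averaged 9.22 ± 0.80 CPM in the replicate 2 libraries and 18.7 ± 1.35 CPM in the replicate 1 libraries (-1.02, SE 0.13), opposite to HIF1A, and CITED2, a competitor for the coactivator, fell by 0.42 (SE 0.08) and ELOB, a partner of VHL, by 0.40 (SE 0.10). Of 28 other tested HIF targets, 11 rose and 5 fell, with STC2 (0.98, SE 0.11), PPFIA4 (0.85, SE 0.10), ZNF395 (0.83, SE 0.10) and KDM3A, a histone demethylase (0.71, SE 0.10), rising and PLIN2, a lipid droplet protein, falling by 0.70 (SE 0.09), JMJD6 by 0.48 (SE 0.09), FAM162A by 0.49 (SE 0.11) and KLF10 by 0.37 (SE 0.10). The median log2 fold change over those 28 was 0.23, against 0.01 over all genes. As among the members, both directions occurred.

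In the branch to pentoses and at the entry into mitochondria genes were called in both directions, with a median log2 fold change of -0.30 over the 8 tested genes of the first and -0.27 over the 12 of the second, where 22.8% of all genes were called higher and 22.6% lower, with a median of 0.01. Of 8 genes of the pentose phosphate pathway, 4 fell and 2 rose, with PGD at 216 ± 18.5 CPM in the replicate 2 libraries and 659 ± 13.9 CPM in the replicate 1 libraries (-1.61, SE 0.09). TKT fell by 0.59 (SE 0.09) and RPIA by 0.35 (SE 0.09), and PGLS (0.55, SE 0.09) and TKTL1 (0.41, SE 0.12) rose. Of 12 genes of the pyruvate dehydrogenase axis, 6 fell on counts (1 of them, MPC2, not on TPM) and 2 rose, among them PDHA1, the subunit that the PDK kinases phosphorylate (-0.65, SE 0.09), and PDP1, the phosphatase that reverses this step (0.61, SE 0.12). DLAT (-0.49, SE 0.08) and PDHX (-0.39, SE 0.10) fell and PDHB (0.31, SE 0.10) rose. MPC2, a subunit of the mitochondrial pyruvate carrier, fell on counts (-0.49, SE 0.13) but not on TPM, which averaged 17.2 in the replicate 2 libraries and 16.9 in the replicate 1 libraries. Of 16 genes of the tricarboxylic acid cycle, 4 fell and 2 rose. MDH2, the mitochondrial malate dehydrogenase, averaged 249.4 ± 22.1 CPM in the replicate 2 libraries and 86.4 ± 3.53 CPM in the replicate 1 libraries (1.53, SE 0.09) and SUCLG1 rose by 0.35 (SE 0.10), whereas IDH3A (-0.92, SE 0.09), IDH3B (-0.81, SE 0.10), SDHA (-0.49, SE 0.08) and SDHB (-0.45, SE 0.09) fell. All genes named from these lists passed an adjusted p of 0.05 in edgeR, the values in parentheses are log2 fold changes, and levels are means ± SD of n = 3 libraries. With the replicate block, 0 genes of these 7 lists were called between the labelled groups, where at most 0.0069% of all genes were. These counts are thus near the share of all genes. The fit without a block also called 0 of them. On simulated data that fit did not recover the changes put in, so its 0 says nothing about these genes.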

How the data were processed

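The submitters' processing notes name kallisto 0.43.1, CASAVA and the build hg38. The deposited tables give the authors' estimated count and TPM for each of 179973 transcripts. Libraries were oligo-dT selected and PCR amplified, per the labels' protocols, with no molecular identifiers mentioned. The sources used here do not say whether counting used strand. Estimated counts were summed per gene with GENCODE release 29 (GRCh38), which matched 163714 transcripts (91.0%), and rounded to whole numbers. Unmatched transcripts held 3.13% to 3.32% of counts per library and were left out. TPM was summed per gene to compare levels per length.

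Tests on these counts used R 4.3.3 and edgeR 4.0.16 over all 6 libraries, with TMM scaling, the filterByExpr filter, the quasi-likelihood fit and F test, and Benjamini-Hochberg adjustment over 14497 genes and a threshold of 0.05. The labelled groups were fitted with 1 coefficient each, and replicate number was tested with group in the model. Standard errors were derived from the fold change and its F statistic. CPM values use TMM-scaled library sizes. The same steps were tested on simulated data, with changes put into genes averaging at least 1 CPM. Between replicate numbers, 93% of 2-fold and 98% of 4-fold changes were recovered, and 15 unchanged genes were called among 14324 tested. For shALKBH5 against shCtrl with the block, 90% and 97% were recovered, and 24 unchanged genes were called among 14329. Without the block, 0% were recovered.

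Replicate numbers come from the titles. Deviations from group means correlated at 0.60 to 0.73 between same-numbered libraries of different groups, so the numbers were taken to pair the libraries. Adding the number as a block brought the biological coefficient of variation to 10.6%, against 27.7% without it. Alternatives were RLE size factors, no filter or 1 CPM in 2 libraries, DESeq2 1.42.0, limma-voom (limma 3.58.1), unmatched transcripts kept in library sizes, the block, number without group terms, each library left out in turn and, chosen after seeing the data, log2(TPM + 1) with limma and the block with a library left out.

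The members and lists were chosen with earlier results of these data known. Named are all 32 members, ALKBH5, and per other list up to 4 called genes per direction with the smallest p. The replicate-number comparison rests on the same libraries that drew attention to it.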

Additional observations from a re-analysis of the deposited data

How the results depend on the processing

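For replicate 2 over replicate 1, HK3, PFKFB3, ALDOC, PDK3, HIF1A, BNIP3L and ADM were called in all 14 alternative settings, ENO1, ENO2 and NDRG1 in 13, BNIP3 and EGLN1 in 12, PGK1 in 11, TPI1 in 10, PGAM1 in 9 and PFKL in 8. PFKL was also lost in DESeq2 and with RLE size factors. The 14 settings include 6 fits with a library left out. With group in the model, the library left alone in its group carries no information on replicate number. These 6 fits therefore come in pairs that nearly repeat each other, and the tallies count each pair in full. Calls were gained for P4HA1 and PFKP in 6 settings each, for LDHA in 3 and for GAPDH and HK1 in 1 each, and members called came to 19 with limma-voom and 20 without group terms. Across libraries left out in turn, 3915 to 6811 genes and 9 to 16 members were called. The count was 9 without either library labelled shALKBH5 (replicate 1 or 2), where PFKL, TPI1, PGK1, PGAM1, EGLN1 and BNIP3 lost their calls under both, ENO1 without replicate 2 and NDRG1 without replicate 1. PFKL and TPI1 were also lost without either shCtrl library, and PGAM1 without either ALKBH5 rescue library. On log2(TPM + 1), PGK1 reversed to 0.14 (adjusted p = 0.0789, limma). The median of the members moved from 0.18 to 0.28 and that of all genes from 0.01 to 0.095. On that scale 15 members and 4683 genes were called, against 16 and 6585 in the main fit. Between the labelled groups the replicate block called 1 gene for ALKBH5 rescue against shCtrl and 1 for shALKBH5 against shCtrl. With the block and 1 library left out, ALKBH5 rescue against shALKBH5 had 0 and 0 called genes without shCtrl replicate 1 and 2, 17 and 38 without shALKBH5, and 54 and 1005 without ALKBH5 rescue. In the same order ALKBH5 rescue against shCtrl had 2 and 1, 35 and 36, and 764 and 101, and shALKBH5 against shCtrl had 4 and 1, 25 and 17, and 420 and 393. Between 0 and 1 members were called. That member was HIF1A, at 0.42 for ALKBH5 rescue over shCtrl without ALKBH5 rescue replicate 1 (edgeR adjusted p = 0.0173) and -0.37 for ALKBH5 rescue over shALKBH5 without ALKBH5 rescue replicate 2 (edgeR adjusted p = 0.0451), with opposite directions and 1 library left in that arm, assumed to vary like the others. The cause of these moves was not tested. EGLN3, PFKM and PFKFB2 rest on few counts, and changes of moderate size in them were not detectable at this depth.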
